A study of Mus musculus with 6 samples.

Results

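The genes described here are 8 genes of the route by which cells present peptides on major histocompatibility complex (MHC) class II molecules, taken by name from the 56941 genes of the deposited count table. They are the class II chains H2-Aa, H2-Ab1 and H2-Eb1, the peptide-loading chains H2-DMa, H2-DMb1 and H2-Oa, the invariant chain Cd74 and the class II activator Ciita. Each was matched to 1 row through its Ensembl identifier. Polyadenylated RNA was sequenced in bulk from cells isolated from mouse lungs with magnetic beads, labelled as primary endothelial cells, freed of dead cells and kept in endothelial medium with serum. The 3 FL libraries carry the genotype label FUNDC1-FLOX, which names a floxed Fundc1 gene, and the 3 EC-KO libraries carry the label FUNDC1-KO. Fundc1 encodes a receptor of the outer mitochondrial membrane in mitophagy, and the series title concerns endothelial loss of Fundc1 in pulmonary hypertension. The sources used here do not name strain, age, sex, Cre driver, bead antibody or time in culture. The titles use the abbreviation PAECs while the protocol describes whole lungs. The labels do not tie replicates to separate animals. The p-values therefore reflect the spread among these 6 libraries only, and part of it may be technical.

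MHC class II molecules are dimers of an alpha and a beta chain that carry peptides from endosomes to the cell surface, where CD4+ T cells read them. The new dimer is held by the invariant chain, which blocks the groove and directs the complex to endosomes, and proteases then trim the invariant chain to a small fragment, CLIP. The H2-DM dimer exchanges CLIP for other peptides, and the H2-O dimer restrains H2-DM. B cells, dendritic cells and macrophages are the classical cells with high class II, while lung alveolar type II cells and endothelial cells can also carry it. The genes share a promoter module bound by RFX, CREB and NF-Y, on which the protein of Ciita acts as the coactivator.

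The 6 libraries held between 26658998 and 34306962 counts. Fundc1 itself was at 25.05, 31.96 and 30.7 CPM (counts scaled to a common library size with TMM factors) in FL 1, 2 and 3 and at 14.12, 18.16 and 12.83 CPM in EC-KO 1, 2 and 3, a log2 fold change of -0.96 ± 0.19 (SE, adjusted p = 0.00796 in edgeR's quasi-likelihood test). Defining endothelial markers were present in every library, but their summed level was 7642 to 10530 CPM in FL and 3134 to 6373 CPM in EC-KO. EC-KO 2 stood apart from EC-KO 1 and EC-KO 3 in several marker sums, given beside the class II genes further on. Leukocyte, B cell, macrophage and alveolar type II markers were also present in every library. Because these are bulk samples, fewer cells of a type and less RNA per cell cannot be told apart in any value that follows.

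Of the 8 class II genes, H2-DMa and H2-DMb1 fell in EC-KO, and H2-Aa, H2-Ab1, H2-Eb1, H2-Oa, Cd74 and Ciita did not pass the test. A gene counts as called where its adjusted p in edgeR's quasi-likelihood test of EC-KO against FL, with Benjamini-Hochberg adjustment over all 18562 genes tested, lay below 0.05. All 8 genes passed the filter on low counts. The count was 2 of 8 lower and 0 of 8 higher, where 27.1% of all tested genes were called, 13.5% lower and 13.5% higher. The share of class II genes called lower rests on 2 genes and is not read as different from that background. At an unadjusted p below 0.05, 3 of the 8 were lower and 0 higher. The groups did not overlap for 3 of the 8 genes, H2-DMa, H2-DMb1 and H2-Ab1, where 45.4% of all tested genes had groups without overlap. The median log2 fold change was -0.47 over the 8 genes and 0.03 over all tested genes.

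**Figure D1:**
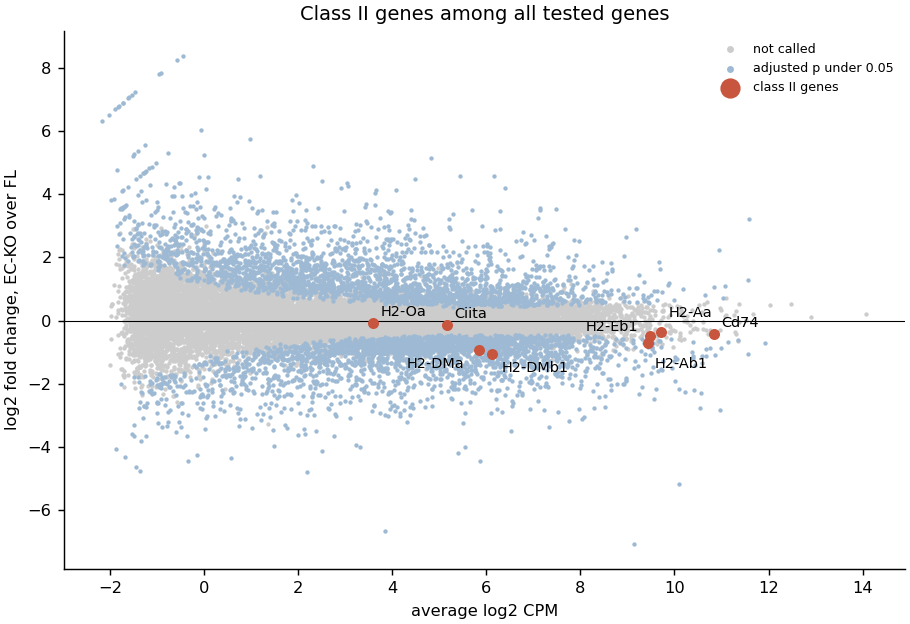
Log2 fold change of EC-KO over FL (vertical axis) against mean level as average log2 CPM (horizontal axis) for all 18562 tested genes (grey, or blue where the adjusted p lay below 0.05), with the 8 class II genes in red. H2-DMb1 at -1.07 and H2-DMa at -0.94 lie lowest of the 8, and H2-Oa at -0.08 and Ciita at -0.13 lie nearest to 0.

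Ranked among all tested genes by fold change from the lowest, H2-DMb1 stood at 8.18% and H2-DMa at 10.5%. H2-Ab1 stood at 15.9%, H2-Eb1 at 22.9%, Cd74 at 25.3% and H2-Aa at 29.4%. Ciita at 40.6% and H2-Oa at 43.5% lay close to the middle of the distribution.

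The class II dimer I-A is made of the alpha chain H2-Aa and the beta chain H2-Ab1, and I-E uses the beta chain H2-Eb1. All 3 genes lie on chromosome 17, with H2-Aa (ENSMUSG00000036594) at 34501718 to 34506797 on the minus strand, H2-Ab1 (ENSMUSG00000073421) at 34476663 to 34488393 on the plus strand and H2-Eb1 (ENSMUSG00000060586) at 34524841 to 34535648 on the plus strand. These are gene positions as the count table gives them. They are not GRCm38 positions, and the build of the table is not resolved. H2-Ab1 was at 933.2, 890.7 and 737.5 CPM in FL 1, 2 and 3 and at 642.1, 357.4 and 567 CPM in EC-KO 1, 2 and 3. Every EC-KO library lay below every FL library, and EC-KO 2 was the lowest. The means were 853.8 ± 103 CPM in FL and 522.2 ± 147.6 CPM in EC-KO (SD, n = 3 each), and the log2 fold change was -0.71 ± 0.24 (95% interval -1.24 to -0.18). Its adjusted p of 0.0531 in edgeR's test lay just above the threshold (unadjusted 0.0148). The gene passed the threshold in 7 of 17 alternatives, among them DESeq2 (adjusted p = 0.0179), limma-voom (0.041) and the fit without EC-KO 2 (0.0328, log2 fold change -0.53), so its call is not settled by these libraries.

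H2-Aa was at 1020, 1014 and 808.2 CPM in FL and at 964.6, 460 and 801.4 CPM in EC-KO. EC-KO 1 and EC-KO 3 lay close to FL 3 or above it, and EC-KO 2 lay far below all other libraries. The log2 fold change was -0.35 ± 0.27 (95% interval -0.96 to 0.25, adjusted p = 0.355 in edgeR's test). H2-Eb1 was at 879, 913 and 731.8 CPM in FL and at 779.3, 348.5 and 651.5 CPM in EC-KO. The groups overlapped here too, since EC-KO 1 exceeded FL 3, and EC-KO 2 was again the lowest. Its log2 fold change was -0.50 ± 0.28 (95% interval -1.14 to 0.13, adjusted p = 0.208 in edgeR's test). The intervals of H2-Aa and H2-Eb1 include both no difference and a lowering to about the size seen for the H2-DM genes. Leaving out EC-KO 2 moved H2-Aa to -0.13 and H2-Eb1 to -0.26, so both values moved by over 1.5 times with that library.

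**Figure D2:**
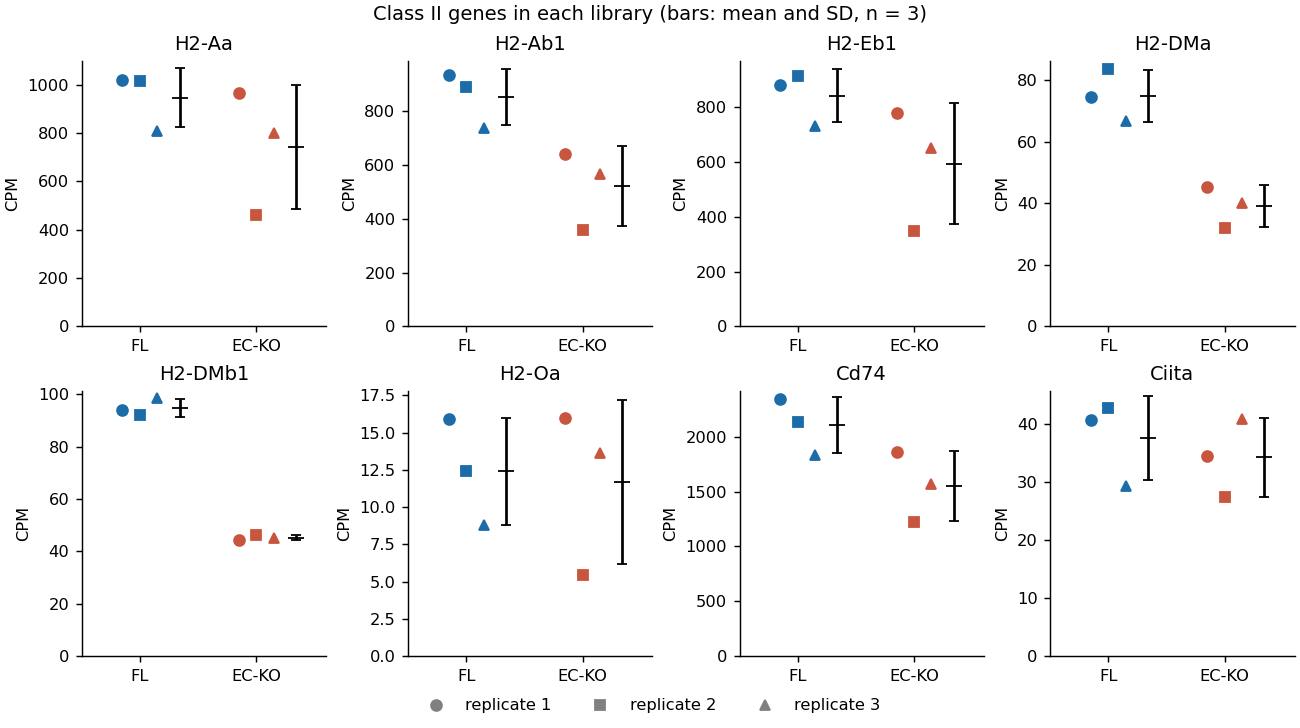
Level of each of the 8 class II genes in CPM (vertical axes, each starting at 0) in FL and EC-KO, with 1 point per library and the mean ± SD of 3 libraries. FL and EC-KO points are apart for H2-Ab1, H2-DMa and H2-DMb1 and overlap for the other 5 genes, in which EC-KO 2 is the lowest library.

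The H2-DM dimer, which releases CLIP and edits the peptides that class II carries, is made of H2-DMa and a beta chain that is encoded by H2-DMb1 or by its neighbour H2-DMb2. H2-DMb1 (ENSMUSG00000079547, chromosome 17, 34372046 to 34379204, plus strand) was at 93.77, 92.06 and 98.58 CPM in FL and at 44.41, 46.19 and 45.12 CPM in EC-KO. The 3 libraries of each group lay within a few CPM of each other, EC-KO 2 included. Mean levels were 94.8 ± 3.38 CPM in FL and 45.24 ± 0.897 CPM in EC-KO (SD, n = 3 each). H2-DMb1 was therefore 2.1-fold lower in EC-KO, with a log2 fold change of -1.07 ± 0.14 (95% interval -1.38 to -0.76, adjusted p = 0.00126 in edgeR's test), which exceeded the spread between libraries. H2-DMa (ENSMUSG00000037649, chromosome 17, 34338515 to 34358075, plus strand) was at 74.51, 83.69 and 66.66 CPM in FL and at 45.42, 31.86 and 40.26 CPM in EC-KO. Again no EC-KO library reached the lowest FL library. The gene was 1.91-fold lower, from 74.95 ± 8.521 to 39.18 ± 6.845 CPM (SD, n = 3 each), with a log2 fold change of -0.94 ± 0.18 (95% interval -1.34 to -0.53, adjusted p = 0.00671 in edgeR's test). Both genes stayed called in 17 of 17 alternatives, with log2 fold changes between -1.12 and -0.98 for H2-DMb1 and between -1.06 and -0.84 for H2-DMa. Annotated exons of H2-DMa share 10.4% of their bases with exons of Brd2 on the other strand, and since the strand setting of the counting is not known, reads from that stretch cannot be assigned to one gene.

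The other beta chain of H2-DM, H2-DMb2, was at 96.57, 87.29 and 66.27 CPM in FL and at 97.92, 28.76 and 79.53 CPM in EC-KO. Its groups overlapped and its log2 fold change was -0.28 ± 0.38 (adjusted p = 0.616 in edgeR's test). H2-DMb1 and H2-DMb2 are similar in sequence. Alignments to several places were left unassigned in the authors' counting, so reads that fit both genes equally add to neither. The levels of both are therefore uncertain. The ratio of H2-DMb1 to H2-DMb2 per kb, looked at after their values were seen and not tested, was 1.01, 1.1 and 1.55 in FL against 0.471, 1.67 and 0.59 in EC-KO. H2-DMb1 thus exceeded H2-DMb2 in EC-KO 2 and lay below it in EC-KO 1 and EC-KO 3. The library in which H2-DMb2 and the class II chains were lowest was one in which H2-DMb1 was not.

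H2-Oa (ENSMUSG00000024334, chromosome 17, 34311314 to 34314208, plus strand) encodes the alpha chain of H2-O, the inhibitor of H2-DM that is best known from B cells. It was at 15.92, 12.44 and 8.801 CPM in FL and at 16, 5.457 and 13.61 CPM in EC-KO. EC-KO 1 held the highest level of all libraries and EC-KO 2 the lowest. Its log2 fold change was -0.08 ± 0.38 (95% interval -0.94 to 0.77, adjusted p = 0.893 in edgeR's test), an interval that includes sizeable differences either way, and its sign turned to 0.03 with library size alone as the scaling. Exons of H2-Oa share 22.8% of their bases with BC051537 on the other strand, which makes the level uncertain. The beta chain of the same dimer, H2-Ob, was at 147.3, 113.8 and 91.09 CPM in FL and at 196.5, 48.51 and 177.5 CPM in EC-KO (log2 fold change 0.26 ± 0.44, adjusted p = 0.685 in edgeR's test). EC-KO 1 and EC-KO 3 lay above all FL libraries and EC-KO 2 below them, and without EC-KO 2 the gene was called higher (0.64, adjusted p = 0.0312).

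**Figure D3:**
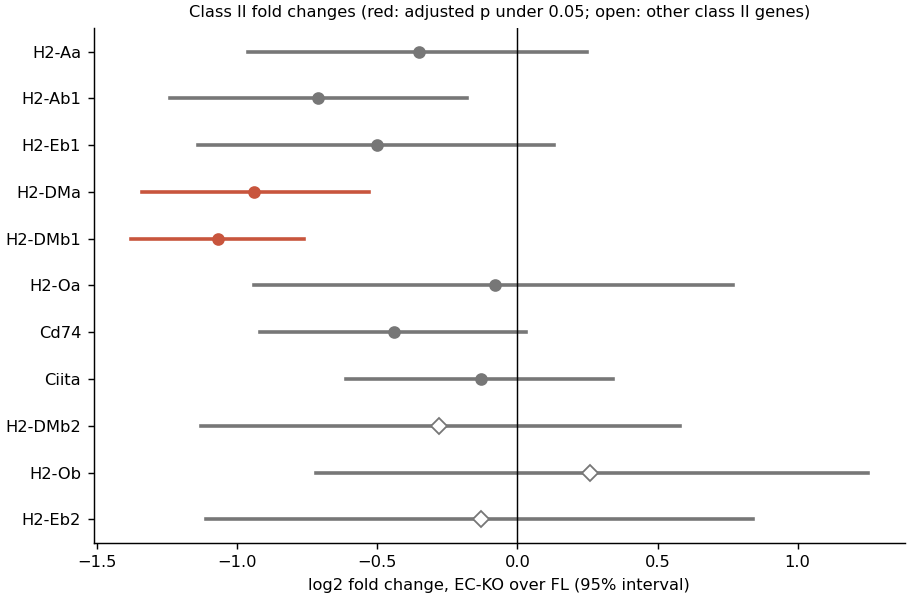
Log2 fold change of EC-KO over FL (horizontal axis) with its 95% interval for the 8 class II genes and 3 other class II genes (open symbols), with called genes in red. Only the intervals of H2-DMb1, H2-DMa and H2-Ab1 lie wholly below 0, and those of H2-Oa and H2-Ob reach well to both sides.

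The list of other class II genes thus had 0 of 4 called (median log2 fold change -0.21), of which H2-DMb2 and H2-Ob are described above. H2-Eb2, a further beta chain gene, was at 18.38, 13.9 and 11.42 CPM in FL and at 16.23, 4.767 and 18.77 CPM in EC-KO (-0.13, adjusted p = 0.841 in edgeR's test). H2-Ea, the alpha chain that pairs with H2-Eb1, is annotated as the polymorphic pseudogene H2-Ea-ps, which many laboratory strains cannot express. It lay between 0.0758 and 0.7027 CPM in the 6 libraries, against 348.5 CPM or more for its partner H2-Eb1.

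The promoter module is visible in the letters upstream of several of these genes. The sequences shown are the 150 bases before the RefSeq start on GRCm38.p6, 5′ to 3′ on the gene's strand, for H2-DMb1, which had the largest difference of the 8 genes, its neighbour H2-DMb2, which did not pass the test, and 3 members that did not pass either. Capitals mark matches to a core of the X1 box (AACNGATG, where RFX binds), of the X2 box (TGACGTCA, where CREB binds) and of the Y box (GATTGG, where NF-Y binds), each searched on both strands. The windows are chr17:34287824-34287973 on the minus strand for H2-Aa, chr17:34305717-34305866 on the plus strand for H2-Eb1, chr17:34153041-34153190 on the plus strand for H2-DMb1, chr17:34145099-34145248 on the plus strand for H2-DMb2 and chr17:34092229-34092378 on the plus strand for H2-Oa.
H2-Aa: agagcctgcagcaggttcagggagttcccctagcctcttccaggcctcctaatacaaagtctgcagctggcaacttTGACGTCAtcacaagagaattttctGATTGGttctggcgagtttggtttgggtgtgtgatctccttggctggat
H2-Eb1: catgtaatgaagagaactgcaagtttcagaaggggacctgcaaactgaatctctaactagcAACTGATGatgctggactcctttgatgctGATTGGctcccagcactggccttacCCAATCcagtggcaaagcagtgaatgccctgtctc
H2-DMb1: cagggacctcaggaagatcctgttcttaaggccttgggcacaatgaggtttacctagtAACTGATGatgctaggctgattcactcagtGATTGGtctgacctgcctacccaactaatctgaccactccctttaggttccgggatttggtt
H2-DMb2: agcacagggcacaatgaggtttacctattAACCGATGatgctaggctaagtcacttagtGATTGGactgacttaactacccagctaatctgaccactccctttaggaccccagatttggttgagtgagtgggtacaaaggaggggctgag
H2-Oa: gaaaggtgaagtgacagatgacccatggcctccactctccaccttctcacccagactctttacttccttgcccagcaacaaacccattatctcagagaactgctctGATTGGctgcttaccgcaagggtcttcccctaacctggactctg

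Of the 8 class II genes, 5 had an entry in the RefSeq promoter table: the 4 members shown and H2-DMa, which has 2 starts there. Among 32851 promoters searched over the same 150 bases, 1.14% held the X1 core, 1.36% the X2 core, 10.9% the Y core and 0.295% an X1 or X2 core together with a Y core. H2-Aa, H2-Eb1 and H2-DMb1 held such a pair, as did H2-DMb2 and H2-Eb2. In H2-Aa, which held an X2 but no exact X1 core, the first base of X2 lay 25 bases before that of the Y core. From the X1 core, the distance to the Y core was 29 bases in H2-Eb1 and H2-Eb2 and 30 in H2-DMb1 and H2-DMb2. The value of H2-Aa starts from a different box and is not comparable with the others. H2-DMb1 and H2-DMb2 thus have the same X1 to Y spacing, and whether their fold changes differ was not tested. H2-Oa and H2-Ob held a Y core without an exact X core, and neither H2-DMa window held a match. A match is a description of these letters and not of binding, and a window without one says nothing about the factor.

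Cd74 (ENSMUSG00000024610, chromosome 18, 60936920 to 60945724, plus strand, positions of the table), the invariant chain and a surface receptor for the cytokine MIF, was the most abundant of the 8 genes. It was at 2347, 2134 and 1836 CPM in FL and at 1859, 1221 and 1566 CPM in EC-KO. EC-KO 1 exceeded FL 3 slightly, so the groups overlapped, and EC-KO 2 was the lowest. Mean levels were 2106 ± 256.4 CPM in FL and 1549 ± 319.2 CPM in EC-KO (SD, n = 3 each), with a log2 fold change of -0.44 ± 0.21 (95% interval -0.92 to 0.03, adjusted p = 0.146 in edgeR's test).

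Of 6 ligands and co-receptors of Cd74, 1 rose and 2 fell (median log2 fold change -0.21). Cxcr4, a chemokine receptor that can pair with Cd74, rose by 1.65 ± 0.35 on the log2 scale (adjusted p = 0.0101 in edgeR's test), from 135.3, 270.8 and 187.2 CPM in FL to 807.4, 344.6 and 704.8 CPM in EC-KO. Cxcr2, a receptor of neutrophil chemokines that MIF also engages, had a log2 fold change of -4.02 (adjusted p = 0.000352 in edgeR's test), and Ackr3, an atypical receptor of CXCL12 and MIF, one of -2.81 (adjusted p = 0.000352). These are larger than any difference among the 8 class II genes. The ligand Mif (0.12, adjusted p = 0.634) and the signalling partner Cd44 (-0.40, adjusted p = 0.145), named for their roles, did not pass.

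Ciita (ENSMUSG00000022504, chromosome 16, 10297923 to 10346282, plus strand, positions of the table) encodes the class II transactivator. It was at 40.78, 42.84 and 29.33 CPM in FL and at 34.54, 27.41 and 40.94 CPM in EC-KO. The lowest and the second-highest libraries were both EC-KO, and the groups overlapped over most of their range. The log2 fold change was -0.13 ± 0.21 (95% interval -0.61 to 0.34, adjusted p = 0.667 in edgeR's test), so a change of Ciita was not shown while one of up to about 1.5-fold lower stayed within its interval. Ciita is read from several alternative promoters in different cell types, and counts per gene do not separate them.

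Among 11 genes of the class II enhanceosome and its coactivators, 1 rose and 1 fell (median -0.02). Nfyc, a subunit of NF-Y, rose by 0.75 on the log2 scale (adjusted p = 0.0134 in edgeR's test), and Creb1, which binds the X2 box, fell by 0.52 (adjusted p = 0.0353). Nfyc lost its call without FL 2, FL 3 or EC-KO 1 (adjusted p up to 0.0681), and Creb1 kept its call in only 1 of 6 fits that left out a library. The RFX subunits, named for their role, had log2 fold changes of 0.45 (Rfx5, adjusted p = 0.127), 0.08 (Rfxank) and -0.02 (Rfxap).

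Of 11 genes on the route from interferon gamma to Ciita, 1 rose and 2 fell (median 0.10). Irf2, a factor of the interferon response that also binds a Ciita promoter, fell by 0.95 on the log2 scale (adjusted p = 0.00552 in edgeR's test), from 99.34, 101.9 and 96.51 CPM in FL to 46.29, 63.22 and 44.13 CPM in EC-KO. Irf1, an interferon-induced activator, fell by 0.67 (adjusted p = 0.0357), a call kept in 1 of 6 fits that left out a library. Ptpn2, a phosphatase that dampens cytokine receptor signals, rose by 0.74 (adjusted p = 0.0193), a call kept in 3 of those 6 fits. Ifng, the cytokine itself and named for its role, did not pass (0.02, adjusted p = 0.954).

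All 5 genes listed as myeloid and B cell regulators of Ciita were called, in both directions, where 27.1% of all tested genes were called. The list was chosen with earlier results of these data known, so the count is not read against that share. Without the filter on low counts, 1 was called higher and 2 lower. Spi1, the factor PU.1 of myeloid and B cells, was at 123.7, 141.1 and 126.1 CPM in FL and at 34.28, 35.91 and 43.11 CPM in EC-KO (log2 fold change -1.79, adjusted p = 0.000436 in edgeR's test). Prdm1, the repressor Blimp-1 that silences Ciita in plasma cells, fell by 0.93 (adjusted p = 0.0112). Irf4, a factor of activated lymphocytes, rose from 101.9, 72.47 and 44.89 CPM in FL to 533.7, 179.4 and 556.8 CPM in EC-KO (2.53, adjusted p = 0.00471). Irf8, a partner of PU.1, rose by 1.27 on the log2 scale (adjusted p = 0.00768), and Nfkb1 by 0.56 (adjusted p = 0.0483), the latter called in 2 of 6 fits that left out a library. Log2 fold changes in this list thus ran from -1.79 (Spi1) to 2.53 (Irf4). That of Ciita was -0.13, with an interval from -0.61 to 0.34, as given above. Whether the differences of these genes bear on the level of Ciita was not tested.

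Endosomal processing genes had 3 of 9 lower and 0 higher (median -0.29). Ctss, the cysteine protease cathepsin S that makes the last cuts of the invariant chain, was at 572.9, 572.4 and 422.6 CPM in FL and at 133.7, 118.7 and 136.2 CPM in EC-KO. No EC-KO library came near the FL range, and the log2 fold change was -2.01 (adjusted p = 0.000436 in edgeR's test). Ctsd, the aspartic protease cathepsin D, fell by 1.15 (adjusted p = 0.00259), and Sppl2a, the protease that clears the membrane stub of the invariant chain, fell by 0.88 (adjusted p = 0.00668). All 3 were called in every fit that left out 1 library.

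Of 3 genes of class II turnover, 1 fell and 0 rose (median -0.67). March1, the ubiquitin ligase that removes class II from the surface of dendritic and B cells, was at 27.29, 38.56 and 23.27 CPM in FL and at 12.56, 6.397 and 11.94 CPM in EC-KO (log2 fold change -1.53, adjusted p = 0.00671 in edgeR's test). Called lower were thus H2-DMa and H2-DMb1 for peptide loading, Ctss, Ctsd and Sppl2a for proteolysis and March1 for turnover. H2-Oa, H2-DMb2 and H2-Ob for loading did not pass. Neither did 6 of the 9 processing genes: Ctsb (-0.29), Cst3 (-0.29), Ctsl (-0.05), Ifi30 (0.02), Ctsh (0.15) and Lgmn (0.29). For turnover, March8 (-0.67) and Cd83 (0.37) did not pass. Among all tested genes 13.5% were called lower, and these short lists are not read as different from that share.

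Levels of different genes were compared as CPM per kb of annotated exon. In FL, Cd74 stood at 1254 ± 152.7 CPM per kb, followed by H2-Eb1 at 432.8 ± 49.54, H2-Ab1 at 332.5 ± 40.09 and H2-Aa at 249.4 ± 31.72 (SD, n = 3). H2-DMb1 followed at 56.4 ± 2.011, H2-DMa at 21.74 ± 2.471, H2-Oa at 8.802 ± 2.529 and Ciita at 3.948 ± 0.7635 CPM per kb. Neighbours in this order lay more than the sum of their SDs apart in FL. In EC-KO the order was the same, with Cd74 at 922.5 ± 190.1, H2-Eb1 at 305.1 ± 113.8, H2-Ab1 at 203.3 ± 57.46 and H2-Aa at 195.4 ± 67.81 CPM per kb. H2-DMb1 was then at 26.91 ± 0.5336, H2-DMa at 11.36 ± 1.985, H2-Oa at 8.306 ± 3.928 and Ciita at 3.597 ± 0.71 CPM per kb. There the neighbours from H2-Eb1 to H2-Aa, and H2-DMa and H2-Oa, lay within the sum of their SDs, which leaves out that both are measured in the same library. Within EC-KO 1, 2 and 3, H2-Eb1 per H2-Ab1 was 1.6, 1.29 and 1.52, above 1 in each. H2-Oa per H2-DMa was 0.863, 0.42 and 0.828, below 1 in each. H2-Aa per H2-Ab1 lay on both sides of 1, at 1.02, 0.87 and 0.956.

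Whether the genes kept their proportions was examined with 7 ratios within each library, compared by a two-sided exact permutation test. With 3 libraries against 3 the smallest p it allows is 0.1, so none of the ratios could pass, and adjusted values over the 7 lay between 0.233 and 0.6. H2-Aa per H2-Ab1 was 0.739, 0.77 and 0.741 in FL against 1.02, 0.87 and 0.956 in EC-KO, a log2 difference of 0.33 (exact p = 0.1, adjusted 0.233). The libraries of the 2 groups did not overlap, and the alpha chain made up more of the I-A pair in each EC-KO library. Cd74 per H2-Ab1 was 3.85, 3.66 and 3.81 in FL against 4.43, 5.23 and 4.22 in EC-KO (0.29, exact p = 0.1, adjusted 0.233). Ciita per H2-Ab1 was 0.0118, 0.013 and 0.0107 in FL against 0.0145, 0.0207 and 0.0194 in EC-KO (0.61, exact p = 0.1, adjusted 0.233). In these 3 of 7 ratios H2-Ab1 made up less relative to its partner in every EC-KO library than in any FL library. Groups without overlap are what an exact p of 0.1 stands for here. The 3 ratios share H2-Ab1 as divisor and are not separate results, and the other ratios over H2-Ab1 overlapped, as given next.

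H2-Eb1 per H2-Ab1 (log2 difference 0.17, exact p = 0.3), H2-DMa per H2-DMb1 (0.12, exact p = 0.6), H2-Oa per H2-DMa (0.76, exact p = 0.2) and H2-DMa per H2-Ab1 (-0.20, exact p = 0.2) overlapped between the groups. H2-Oa per H2-DMa was 0.524, 0.364 and 0.324 in FL against 0.863, 0.42 and 0.828 in EC-KO, higher than all FL libraries in EC-KO 1 and EC-KO 3. H2-DMa passed the test and H2-Ab1 did not, but a difference between the fold changes of the pair was neither shown nor excluded by their ratio.

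**Figure D4:**
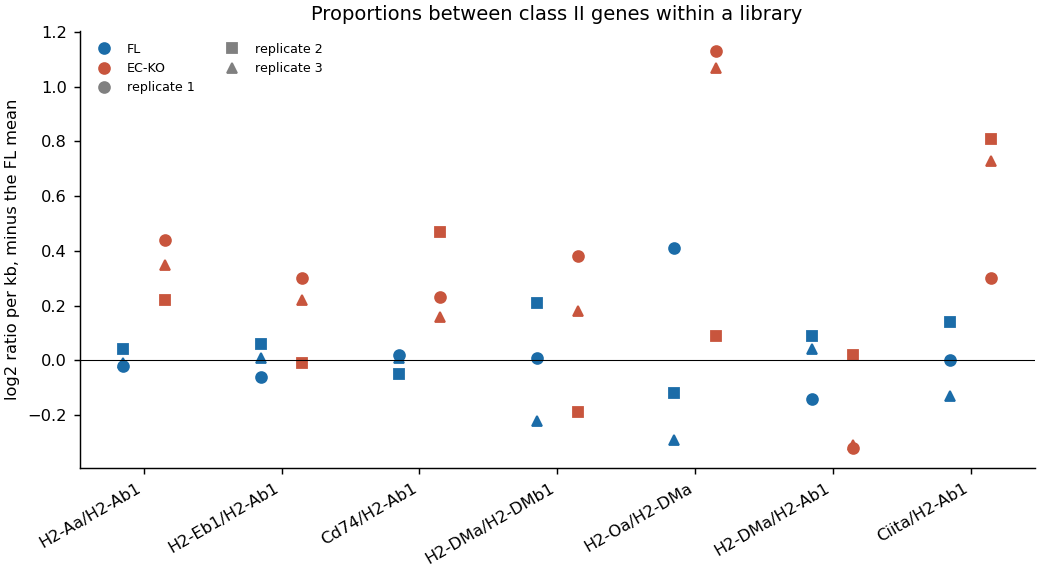
Ratios of pairs of class II genes within each library, as log2 difference from the FL mean (vertical axis), with 1 point per library. EC-KO points lie above all FL points for H2-Aa, Cd74 and Ciita per H2-Ab1 and overlap the FL points for the other 4 ratios.

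Within EC-KO the genes did not vary alike. Relative to the FL mean on the log2 scale, EC-KO 1, 2 and 3 were at 0.03, -1.03 and -0.23 for H2-Aa, at -0.10, -1.26 and -0.36 for H2-Eb1 and at -0.40, -1.25 and -0.58 for H2-Ab1. Cd74 had the same order at -0.17, -0.78 and -0.42, and H2-Oa at 0.41, -1.13 and 0.18. H2-DMa had that order too, at -0.72, -1.23 and -0.89, and H2-DMb1 was nearly level at -1.09, -1.04 and -1.07. EC-KO 2 thus held the lowest level of 7 of the 8 genes, H2-DMb1 being the exception. Over the 6 libraries, which share their group and their composition, log2 levels of H2-Aa and H2-Eb1 had a Pearson r of 0.99, H2-Ab1 and Cd74 of 0.98 and H2-DMa and H2-DMb1 of 0.92, given as a description. For H2-DMb1 with H2-Oa r was 0.12 and for H2-DMb1 with Ciita 0.22.

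Marker lists of cell types that carry class II differed in how many genes were called. Among all tested genes, 13.5% were called lower and 13.5% higher. Of 8 B cell markers, 0 were called, but EC-KO 2 was apart, with summed levels of 637.7, 556.6 and 374.9 CPM in FL and of 843.9, 238.4 and 813.8 CPM in EC-KO 1, 2 and 3. Without EC-KO 2, 4 of the 8 B cell markers were called higher and 1 lower. The sum of 6 pan-leukocyte markers was 3943, 4420 and 3540 CPM in FL and 3164, 1941 and 3105 CPM in EC-KO, with 2 of 6 lower (Lcp1 and Coro1a, the latter called in 2 of 6 fits that left out a library) and 0 higher. EC-KO 2 was lowest in both sums, as it was for 7 of the 8 class II genes, all but H2-DMb1.

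Macrophage and monocyte markers had 10 of 12 lower and 0 higher (median -1.79). Those with the smallest p in edgeR's test were Mrc1 (-2.91), Fcgr1 (-2.80) and Adgre1 (-2.30). Their sum was 4336, 5224 and 3427 CPM in FL and 2075, 2829 and 2058 CPM in EC-KO. Relative to FL, the mean of the 12 markers lay at -1.87, -1.69 and -1.64 (log2) in EC-KO 1, 2 and 3. This mean weighs each marker alike, and it was low in each EC-KO library to a similar degree. The sum was not level, being highest of the EC-KO libraries in EC-KO 2. Single markers varied as well, such as Cx3cr1 at 4.649, 1.725 and 5.442 CPM in EC-KO 1, 2 and 3. Dendritic cell markers had 5 of 10 lower and 0 higher (median -0.96), led by Cd209a (-3.44), Itgax (-1.97) and Itgae (-1.58), with sums of 707.2, 700 and 542.4 CPM in FL and 736.4, 376.5 and 643.6 CPM in EC-KO. The sums overlapped although 5 markers fell. Ccr7, named after its values were seen, made up much of them, at 223.8, 176.8 and 114.4 CPM in FL and at 564.6, 152.5 and 450.7 CPM in EC-KO (1.18, adjusted p = 0.0718 in edgeR's test). The mean of the 10 dendritic cell markers, which weighs each alike, was -0.68, -0.86 and -0.78 (log2, relative to FL) in EC-KO 1, 2 and 3, similar in all 3.

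Alveolar type II markers had 6 of 8 higher and 0 lower (median 1.75; Sftpc 3.23, Sftpa1 2.91, Sftpb 2.66), with sums of 664.5 to 1841 CPM in FL and 6056 to 10600 CPM in EC-KO. Fibroblast markers had 5 of 8 higher and 0 lower (median 1.24; Serpinf1 3.52, Dcn 2.90, Lum 2.79), with sums of 357.6 to 457.6 CPM in FL and 678.6 to 1495 CPM in EC-KO. Endothelial markers had 7 of 12 lower and 0 higher (median -1.04; Tek -2.00, Emcn -1.69, Kdr -1.21), and EC-KO 2, at 6373 CPM in sum, was closest to FL. That count was 2 without FL 3 or EC-KO 1 (where Kdr lost its call), 3 without FL 2 or EC-KO 3 and 12 without EC-KO 2. T cell and NK cell markers had 2 of 8 higher (Klrb1c, Nkg7) and 1 lower (Cd3g), with sums of 130.8 to 169.8 CPM in FL and 137.7 to 198.5 CPM in EC-KO. Without EC-KO 1, 0 of these 8 were called higher, and Cd3g was called in 2 of 6 fits that left out a library. In none of the 8 marker lists was a marker at 0 in all libraries. The part of any of these cell types in the class II values was not tested.

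**Figure D5:**
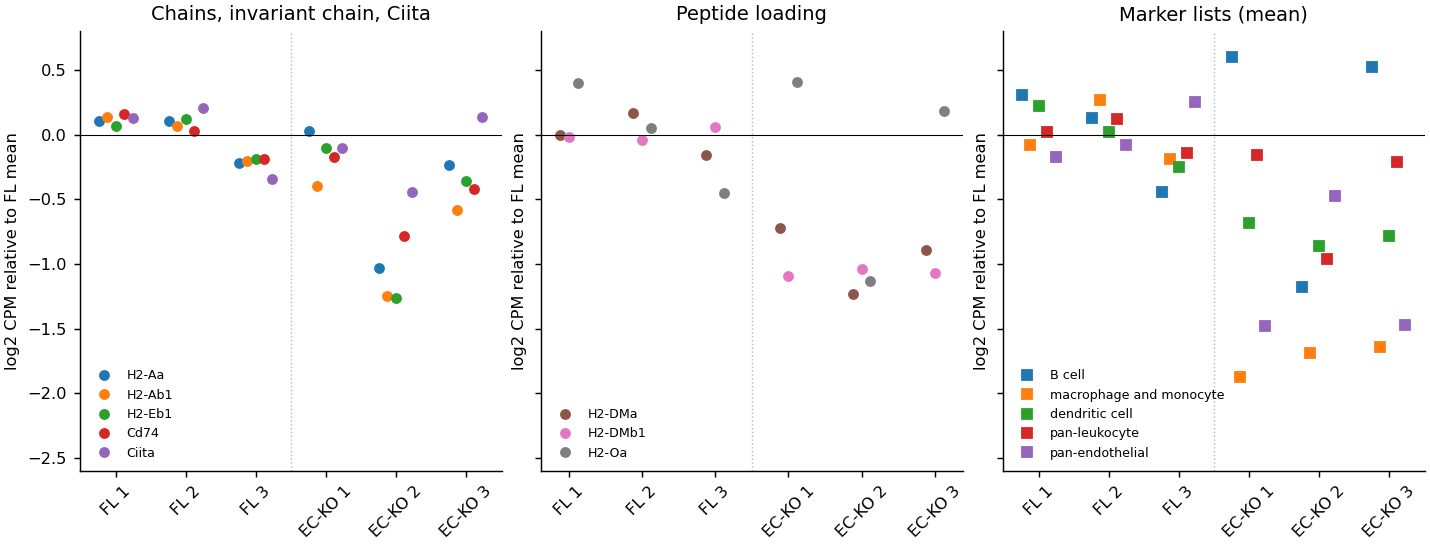
Log2 CPM relative to the FL mean (vertical axis) in each of the 6 libraries for the class II genes (circles) and for the mean of 5 marker lists (squares). EC-KO 2 lies lowest for 7 of the 8 class II genes and for the B cell and pan-leukocyte markers. H2-DMb1 varies little among the 3 EC-KO libraries. The macrophage and dendritic cell means also vary little there, each at its own depth.

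Each gene was also divided by the marker sums of its own library, and the result depended on the divisor. Over the pan-leukocyte sum, the mean log2 difference of EC-KO from FL ran from -0.50 for H2-DMb1 to 0.43 for Ciita among the 8 genes. H2-Ab1 (-0.18), H2-Eb1 (-0.01), H2-Aa (0.15) and Cd74 (0.11) overlapped FL, as did H2-Oa (0.38) and H2-DMb1. H2-DMa lay below all FL libraries at -0.40, -0.20 and -0.54 in EC-KO 1, 2 and 3, and Ciita above them at 0.22, 0.59 and 0.49. Over the macrophage sum the 8 genes ran from -0.17 for H2-DMb1 to 0.76 for Ciita, with H2-Aa at 1.07, -0.44 and 0.82, and Ciita alone was outside the FL range. Over the B cell sum they ran from -1.17 for H2-DMb1, at -1.82, 0.06 and -1.74, to -0.23 for Ciita, and over the endothelial sum from 0.08 for H2-DMb1 to 1.01 for Ciita. The groups overlapped for all 8 genes over either of these sums. These quotients are descriptions without a test, and the sums weigh abundant markers most. Lyz2, named after its values were seen, made up most of the macrophage sum. It was at 3237, 3819 and 2455 CPM in FL and at 1825, 2512 and 1747 CPM in EC-KO. Lyz2 was not called (-0.64, adjusted p = 0.0694 in edgeR's test), so the quotients over that sum mainly follow this gene and not the list as a whole.

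The mean profile of the 8 genes, as centred log2 CPM, was 0.41, 0.37 and 0.07 in the FL libraries, in the order of their numbers, against 0.01, -0.74 and -0.12 in the EC-KO libraries. It was set mainly by the low EC-KO 2 and by FL 1 and FL 2. Among 13512 other genes with enough counts, those most like it over the 6 libraries were Csk (Pearson r = 0.998), Sla (0.997), Cybc1 (0.997), Tmem268 (0.996), Msh3 (0.993), Nsf (0.993), Letmd1 (0.993) and B3gnt5 (0.991). None of these 8 was called between EC-KO and FL, and with 6 libraries such values of r are a description of likeness only.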

How the data were processed

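RNA-seq of 3 FL and 3 EC-KO libraries was analysed from the count table that the authors deposited, which holds raw counts per Ensembl gene in featureCounts layout, per the file headers. Tools named in the submitters' processing notes are featureCounts 2.0.3 and STAR 2.7.10b, and the build named is mm10. The strand setting, the alignment settings and the annotation release were not stated in any source used here. The positions in the table of the 6 members on chromosome 17 lie 218974 bases from those of GRCm38 (mm10). Only 1441 of 51948 genes had the same start and end as in a GENCODE annotation of GRCm38. The table is therefore not in GRCm38 positions, and which build it uses is unresolved. Promoter windows are in GRCm38.p6 positions and cannot be set beside those of the table. In the deposited summary of alignment counts, 72.35% to 77.82% of alignments were assigned to genes, 9.099% to 11.47% mapped to several places and 3.601% to 3.985% were ambiguous. Another 2 per-sample columns match no sample and were not used. Symbols came from GENCODE for 51948 of 56941 genes.

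Counts were filtered (filterByExpr, 18562 of 33412 genes with any count), scaled with TMM and tested in edgeR 4.0.16 (R 4.3.3) with the robust quasi-likelihood F test of EC-KO against FL, two-sided, without covariates, adjusted by Benjamini-Hochberg and called below 0.05. CPM was computed from counts and scaled library sizes. Each SE is the absolute log2 fold change over the square root of F, and so no measure apart from the p-value. Lengths are unions of annotated exons. Ratios were tested by exact permutation (scipy 1.17.1). DESeq2 1.42.0 and limma 3.58.1 were alternatives. The fit was tested on simulated data.

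The members and lists were chosen with earlier results of these data known. Named were all 8 members, up to 3 called genes per direction of each list (else its most abundant gene), the 8 most similar genes of average log2 CPM of at least 1, and Fundc1. A gene that this rule names in the B cell list is not reported here. All other class II genes, the RFX subunits, Ifng, Mif and Cd44 were added for their roles after values were seen. The 7 pathway lists were other class II genes, enhanceosome and coactivators, interferon gamma route, myeloid and B cell regulators of Ciita, endosomal processing, turnover, and Cd74 ligands and co-receptors. The 8 marker lists were pan-endothelial, macrophage and monocyte, dendritic cell, B cell, T cell and NK cell, alveolar type II, fibroblast and pan-leukocyte. Alternatives changed scaling, filter, test, design, threshold and libraries. Promoter sequences are from RefSeq (GRCm38.p6).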

Additional observations from a re-analysis of the deposited data

How the results depend on the processing

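The count of class II genes called lower was 2 in 11 and 3 in 8 of 19 alternatives, the added gene being H2-Ab1, and 0 were higher in any. Over all genes, 5029 were called, against 2547 to 6740 with 1 library left out (lowest when FL 3 was left out, then 2626 for FL 2 and 2832 for EC-KO 1, and highest for EC-KO 2), 7554 without FL 1 and EC-KO 2, and 2015 at a threshold of 0.01. With the replicate block 3848 genes were called and 2 class II genes were lower, H2-DMa (adjusted p = 0.018 in edgeR's test) and H2-DMb1 (0.00633). Same-numbered libraries deviated together with r of 0.05, 0.07 and -0.18, which does not show a pairing by number and cannot exclude one. The block ended the calls of Creb1, Irf1, Nfkb1 and Psmb9. The sign of H2-Oa turned to 0.03 with library size alone and 0.44 without FL 1 and EC-KO 2, and spanned -0.38 to 0.23 with 1 library left out. Ciita turned to 0.03 without FL 1 and EC-KO 2, where H2-DMb2 was at 0.17 and H2-Eb2 at 0.43. With 1 library left out H2-DMb2 spanned -0.63 to 0.06, H2-Ob -0.06 to 0.64, H2-Eb2 -0.49 to 0.24 and the log2 ratio of H2-DMa to H2-DMb1 -0.01 to 0.28. In limma-voom H2-Ea-ps was at 0.01. Without FL 1 and EC-KO 2, H2-Ob (0.83, adjusted p = 0.0024) was called higher in edgeR's test. Without a filter Irf4 lost its call (adjusted p = 0.0587). The cause was not tested. Library size alone shifted the median of all genes to 0.12. With 3 libraries a group, spread and not depth limited the chains, whose intervals span over 1 on the log2 scale. H2-Ea-ps lay under 1 CPM, and its interval ran from -1.95 to 1.28.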

Other observations

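The 6 class II members on chromosome 17 lie within 224 kb, from 34311314 to 34535648 in the coordinates of the count table, and this interval held 10 other tested genes. Of these, 1 was lower and 0 were higher, with a median log2 fold change of 0.10. Among all tested genes, 13.5% were called lower and 13.5% higher. The 10 include the class II genes H2-DMb2 (-0.28) and H2-Ob (0.26), described above. They also include CR974462.4, Gm15821 and Gm20513, which reached at most 5.968 CPM (Gm20513 in EC-KO 3). The one called was Psmb9, a catalytic subunit of the immunoproteasome (-0.54, adjusted p = 0.0417 in edgeR's quasi-likelihood test), a call kept in 1 of 6 fits that left out a library. The peptide transporter genes of the class I route, Tap1 (0.58, adjusted p = 0.0697) and Tap2 (-0.22), the further immunoproteasome subunit Psmb8 (-0.07) and the bromodomain gene Brd2 (0.44, adjusted p = 0.0696) did not pass. Psmb9 and Tap1 overlap at their ends, so their counts are uncertain. These genes were named after their values were seen.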
